A study of Mus musculus with 8 samples.

Results

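The regions described here carried a peak of H3K27me3 in both libraries from mouse germline stem cells cultured for about 60 months (60M) and in neither library from cells cultured for about 5 months (5M), and they overlapped no H3K4me3 peak. Peaks of the 4 H3K27me3 lists sharing 1 bp or more were joined into regions, and the presence and absence of peaks in these lists, together with the H3K4me3 lists, chose the regions. There were 992 of them among 26634 merged H3K27me3 regions, or 3.72% of all and 5.02% of the 19766 merged regions that overlapped no H3K4me3 peak. The lists that chose them also supply their H3K27me3 values, so those values are given as a description, with no test.

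H3K27me3 is laid down by Polycomb repressive complex 2, whose catalytic subunit is EZH1 or EZH2, and it marks genes that are kept silent, often genes of other cell lineages. H3K4me3 is deposited by MLL and SET1 complexes around the starts of active or poised genes. Where both lie on the same stretch the chromatin is called bivalent, a state known from embryonic stem cells and from male germ cells, and H3K27me3 without H3K4me3 is the form usually found away from active starts. Germline stem cells are spermatogonial stem cells kept in culture with GDNF and FGF2, which sustain their self-renewal.

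The cells came from testes of Green mice, labelled C57BL/6 Tg14(act-EGFP)OsbY01 and kept on a DBA/2 background, so that both ages carry the EGFP transgene. The labels give the genotype as wild type and the medium as Iscove-based, with human FGF2, rat GDNF and fetal bovine serum. Each mark and age had 2 libraries, 8 in all. The labels do not say whether the libraries of an age came from separate cultures or from one cell line, and p-values then measure only the spread between these libraries, part of which can be technical. Bulk peak lists cannot tell fewer cells that carry a mark from less of the mark per cell.

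The H3K27me3 lists held 12002 and 14632 peaks at 5M and 14940 and 13037 at 60M, with borders in bins of 1000 bp. The lists give no read totals, so the depth is unknown, and absence from a list means only that no peak was called. Positions are printed as the lists give them. They follow the chromosome lengths of build mm9: 1331 peaks of the 8 lists, 8 of the 992 regions among them, end beyond the chromosomes of mm10, which the processing notes name. No annotation or genome of mm9 was used, so no gene, exon, intron or sequence is assigned to a region, and the labelled cell type was not checked against marker genes.

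The 60M-only regions were short and mostly of low to middle strength. In merged form 542 of the 992 regions (54.6%) were a single 1 kb bin, 327 (33.0%) measured 2 kb and 123 (12.4%) measured 3 kb or more, up to 8 kb. Together they covered 1.60 Mb. The authors' maximum immunoprecipitation signal per peak, used here only to rank peaks within a list, had a median of 43.0 in 60M library 1 and 42.7 in 60M library 2, against medians of 45.9 and 46.2 for the whole lists. As a percentile within its own list, the median region stood at 41.3 in library 1, with quartiles of 23.7 and 59.4, and at 39.3 in library 2, with quartiles of 23.2 and 57.5.

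For comparison, regions away from H3K4me3 that were listed in all 4 libraries had median percentiles of 64.0 and 70.7 in the 5M lists and 72.4 and 70.7 in the 60M lists. Regions listed in a single library had medians of 16.4 to 23.7. The 1014 regions of the reverse kind, listed at 5M only and away from H3K4me3 (5.13% of the 19766), had medians of 36.4 and 47.0 in their own lists and were wider, with a mean merged width of 1.99 kb against 1.61 kb for the 60M-only regions. Widths of 3 kb or more were reached by 251 of these (24.8%). All these widths and strengths come from the lists that define the groups and were not tested.

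The 2 libraries at 60M gave related strengths to the regions. Over the 992 regions the strength percentiles of both libraries had a Pearson r of 0.73 and a Spearman rho of 0.71, a description across regions that share 2 libraries. The 542 regions of a single bin share their borders in both lists by construction. Of the other 450, 231 (51.3%) had the same highest bin in both lists and 55 (12.2%) had identical borders. In 541 regions the percentile was higher in library 1. A total of 238 regions (24%) lay above the 50th percentile in both lists, 65 above the 75th and 10 above the 90th, while 164 lay under the 25th in both. Only 1 region lay above the 75th percentile of one list and under the 25th of the other.

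**Figure D1:**
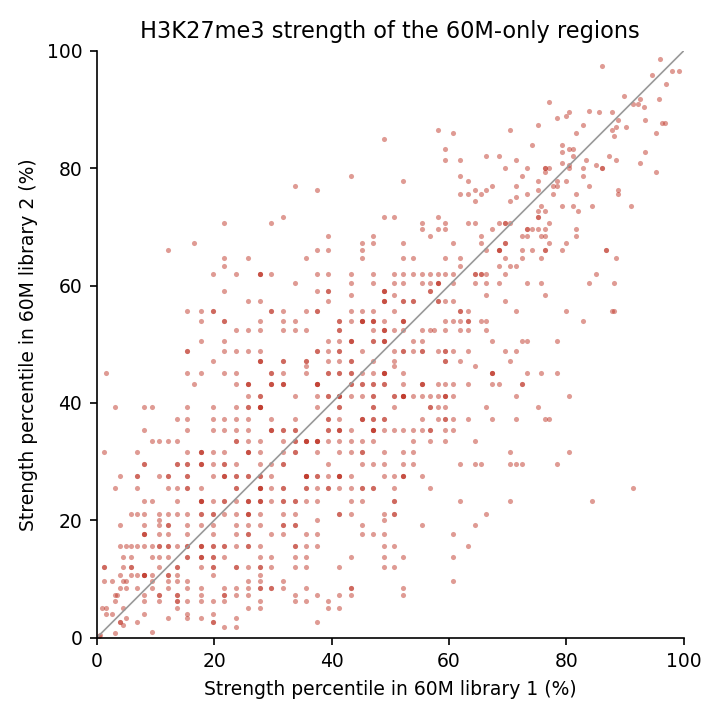
Each point is 1 of the 992 H3K27me3 regions listed at 60M only and away from H3K4me3, placed by its strength percentile within the list of 60M library 1 (horizontal axis, %) and 60M library 2 (vertical axis, %); the line marks equal percentiles. Points spread along the line (Pearson r 0.73), with the median near the 40th percentile and few points in the upper right corner.

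Among regions away from H3K4me3 that neither 5M library listed, most calls of a given 60M library were not repeated in the other. Regions that a 5M library also listed are not part of these shares. Away from H3K4me3, 60M library 1 held 5394 regions that neither 5M library listed, and 18.4% of these (the 992) were also in 60M library 2. Seen from library 2 the share was 23.1% of 4290 regions. With a single list standing for 60M and the remaining lists merged anew, the number of regions that met the rule was 4464 (library 2 alone) or 5580 (library 1 alone), and with 5M library 1 alone standing for 5M it was 1593. At 5M, by the same count, 35.9% of 2824 regions of library 1 and 22.9% of 4427 regions of library 2 were listed in the other 5M library and in no 60M library.

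At the edge of the rule, the weakest regions inside it had a −log10 p against the control of 3.01 in each 60M list, which is the lowest value in any list. The medians were 4.37 and 4.19, and 196 regions had at least 5 in both lists. Just outside the rule were 783 regions away from H3K4me3 with a peak in both 60M lists and in 1 of the 5M lists. Of these, 265 had the extra peak in 5M library 1, at a median percentile of 34.3, and 518 in 5M library 2, at a median of 40.0. Their medians in the 60M lists were 52.3 and 50.6, above those of the 992. A further 178 regions were listed at 60M only and overlapped an H3K4me3 peak. They were 2.59% of the 6868 merged regions that overlapped one, against 589 (8.58%) listed at 5M only. Of all 1170 60M-only regions 84.8% lay away from H3K4me3, where 19766 of all 26634 merged H3K27me3 regions did. Of those listed at 5M only, 1014 lay away and 589 overlapped.

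Most of the strongest regions lay beside an H3K27me3 peak of a 5M list. Of the 12 with the highest mean percentile, 8 had a 5M H3K27me3 peak with a gap of at most 2 kb, which was the case for 305 of all 992 (30.7%). The first was a 1 kb bin on chromosome 15 (102887000 to 102887999), with signal maxima of 124.5 and 92.5 in 60M libraries 1 and 2 and −log10 p of 15.95 and 11.86. It touched an H3K27me3 peak of 5M library 1 and was 5 kb from the nearest one of 5M library 2. Its absence from the list of 5M library 1 thus concerns a single bin at the border of a listed stretch. A 1 kb bin on chromosome 8 (123493000 to 123493999) had maxima of 97.7 and 83.1, and another on the same chromosome (59834000 to 59834999) had 91.3 and 76.1. Both were 1 kb from a peak in each 5M list. On chromosome 18, a bin at 37832000 to 37832999 reached 80.3 and 76.1, also 1 kb from peaks in both 5M lists, and a 3 kb region at 37094000 to 37096999 reached 68.6 and 96.6 and touched a peak of 5M library 1. A region on chromosome 1 (90145000 to 90147999) combined high signal, 92.5 and 107.7, with a modest −log10 p against the control of 4.72 and 5.13. It was 1 kb from a peak in both 5M lists.

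Of the other strong regions, 4 stood further from 5M H3K27me3. On chromosome 7 (12595000 to 12601999) a 7 kb region reached 108.0 and 92.4 in the 60M libraries and had no 5M H3K27me3 peak within 64 kb. It was the only one of the 12 with a gap of at least 50 kb, and it was also the second widest of the 992. On chromosome 8 (12447000 to 12448999) a 2 kb region reached 86.1 and 88.4, with −log10 p of 13.60 and 13.56, and on chromosome 5 (140077000 to 140079999) a 3 kb region reached 94.2 and 69.0. Their gaps to 5M H3K27me3 were 13 and 14 kb, and both touched an H3K4me3 peak in all 4 H3K4me3 lists. A 2 kb region on chromosome 15 (101780000 to 101781999, 82.0 and 73.7) was 8 kb from 5M H3K27me3. The remaining regions of the 12, on chromosome 6 (52102000 to 52103999, 97.1 and 69.0) and chromosome 17 (86002000 to 86002999, 79.7 and 74.3), were 2 kb and 1 kb from it.

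Apart from that 7 kb region, the 8 widest were not among the 12 strongest. The 8 kb region on chromosome 4 (131044000 to 131051999) had maxima of 52.3 and 53.2 at 60M, percentiles of 65.4 and 68.5, and no 5M H3K27me3 within 104 kb. A 6 kb region on chromosome 16 (18610000 to 18615999) had 66.9 and 56.2 and lay 3 kb from 5M peaks in both lists. The 5 kb regions were on chromosome 5 (42167000 to 42171999, 51.8 and 54.4, and 117533000 to 117537999, 45.9 and 35.7), chromosome 2 (29057000 to 29061999, 52.9 and 46.8) and chromosome 14 (87621000 to 87625999, 37.8 and 38.6). The eighth, the strongest of the 4 kb regions, was on chromosome 4 (109778000 to 109781999) and had 56.4 and 59.7. Among these 8, 4 were at least 50 kb from 5M H3K27me3, and the mean percentiles ran from 24.6 to 97.3. None of the 8 had identical borders in both 60M lists.

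Over all 992 regions, H3K27me3 of the 5M lists was often near. It touched 114 of them (11.5%, exact binomial 95% interval 9.57 to 13.6%, counting error only), with 0 bases between the adjacent bins, and lay with a gap under 5 kb from 400 (40.3%, 37.3 to 43.5%). The median gap was 9 kb. At the far end, 243 regions (24.5%) were 50 kb or more from any 5M H3K27me3 peak. Those isolated regions were weaker, with median percentiles of 27.8 and 27.6 in the 60M libraries against 49.0 and 45.2 for the 286 regions with a gap above 0 and under 5 kb, and 25 of them (10.3%) lay above the 50th percentile in both lists against 93 (32.5%). The 114 touching regions had 39.3 and 33.5. In the reverse set, 74 of 1014 regions (7.30%) touched a 60M H3K27me3 peak and 297 (29.3%, 26.5 to 32.2%) were under 5 kb from one. The pair of 60M lists holds more peaks than the pair of 5M lists, and these gaps were not recounted at equal list lengths. Both sets were chosen by these lists, so the shares were not tested against each other.

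The regions lay away from H3K4me3 by the rule, but not far. An H3K4me3 peak of at least 1 library touched 347 of the 992 regions (35%, 32.0 to 38.0%), on one side in 338 and on both sides in 9. The gap was under 5 kb for 615 (62.0%) and under 10 kb for 731 (73.7%), with a median of 2 kb. Only 72 (7.26%) were 50 kb or more from H3K4me3. Those were weak, with median percentiles of 19.8 and 20.2, while the regions that touched H3K4me3 had 43.3 and 41.2. The regions listed at 5M only that the rule left were further away. Their median gap was 4 kb, with 309 of 1014 touching (30.5%) and 129 (12.7%) at 50 kb or more. The rule had removed 589 5M-only regions that overlapped H3K4me3, against 178 60M-only ones, so these gaps concern only what was left. Regions in all 4 H3K27me3 lists (9.34% of those away from H3K4me3) were closer, with a median of 1 kb and 875 of 1847 (47.4%) touching. Among all 19766 regions away from H3K4me3 27.8% touched it.

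**Figure D2:**
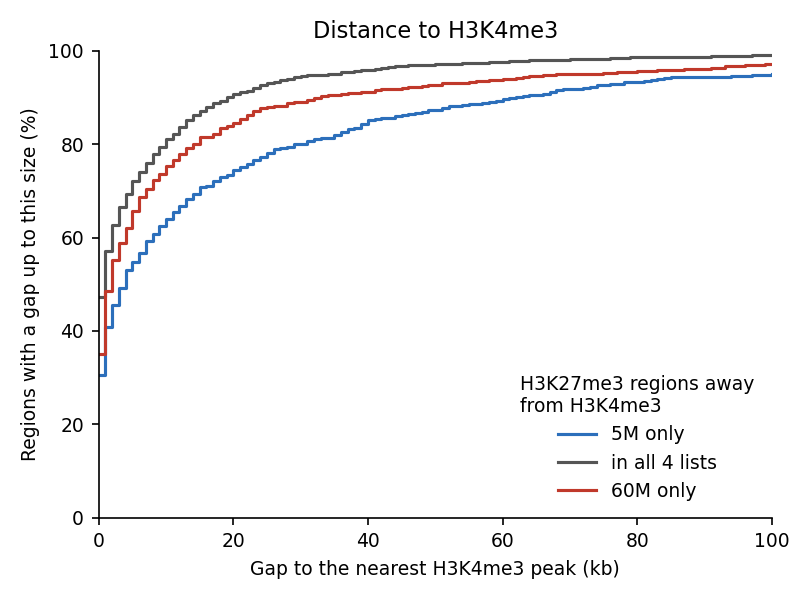
The curves give the share of H3K27me3 regions (vertical axis, %) whose gap to the nearest H3K4me3 peak of any library is at most the distance on the horizontal axis (kb), for regions in both 60M lists alone, both 5M lists alone or all 4 H3K27me3 lists. At a gap of 0 the curves start at 35%, 30.5% and 47.4%, and the 60M-only regions run between the other groups throughout.

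H3K4me3 near the 60M-only regions was listed at similar rates at both ages within 10 kb, and slightly more often at 60M right beside them. The rule removed every region that overlapped H3K4me3 of either age, 589 of those listed at 5M only and 178 of those listed at 60M only. Peaks that touch a region are the nearest to that filter, so their values are given as a description, with no test. The wider window of 10 kb, which is tested, includes these touching peaks, so its p-values are not independent of the rule. Within 10 kb, H3K4me3 had a peak at 67.8% and 69.0% of the regions in 5M libraries 1 and 2, against 70.5% and 68.0% in 60M libraries 1 and 2. The ages overlapped, and their means of 68.4 ± 0.784% and 69.3 ± 1.71% (SD, n = 2) were 0.857 percentage points apart, less than the replicate spread at 60M (exact two-sided permutation test, p = 0.667). Without 60M library 1 the difference was −0.353 points, and within 50 kb of the regions it was −0.101 points. Touching peaks were listed at 28.7% and 29.2% of the regions at 5M and at 32.9% and 31.1% at 60M. The lower 60M value exceeded the higher 5M value, and the means were 3.02 percentage points apart. When every H3K4me3 list was shortened to its strongest peaks at equal length, the values within 10 kb were 65.8% and 65.6% at 5M and 69.4% and 68.0% at 60M, so that the ages no longer overlapped (exact permutation p = 0.333, the smallest that 2 libraries against 2 allow). The touching values at equal length were 27.8% and 27.4% against 32.6% and 31.1%.

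At the regions of the reverse kind the difference had the other sign, and its size depended on the list lengths. At the 5M-only H3K27me3 regions, touching H3K4me3 was present at 25% and 27.7% of regions by the 5M H3K4me3 lists, against 18.4% and 18.5% by the 60M lists. Within 10 kb the values were 55.0% and 57.0% against 49.9% and 48.6%. The 5M H3K4me3 lists are the longer ones. At equal list lengths the difference within 10 kb was reduced from −6.76 to −2.02 percentage points, with 50.1% and 49.9% at 5M against 47.3% and 48.6% at 60M, and the touching difference from −7.89 to −4.09 points. At regions in all 4 H3K27me3 lists, touching H3K4me3 was listed at 41.2% and 41.7% of regions at 5M against 43.5% and 44.6% at 60M, a difference of 2.54 points, near the 3.02 points at the 60M-only regions. Over all 19766 regions away from H3K4me3 the touching values were 22.6% and 23.9% against 22.5% and 21.9%, a difference of −1.03 points, which became 0.402 points at equal list lengths. The difference at the 60M-only regions was above that of all regions in either setting, at 3.02 and 4.23 points. At the regions in all 4 H3K27me3 lists the touching difference at equal list lengths was 3.95 points. Within 10 kb of those regions it was 2.54 points with full lists and 5.17 points at equal lengths, larger than at the 60M-only regions in either setting. These differences are given as a description, since H3K4me3 lists took part in choosing the sets.

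The H3K4me3 beside the 60M-only regions was itself mostly present at both ages. Of 348 merged H3K4me3 regions that touched one of them, 307 (88.2%, 84.4 to 91.4%) were listed in all 4 H3K4me3 libraries, 10 (2.87%) at 60M only and 4 (1.15%, 0.314 to 2.92%) at 5M only. Over all 54585 merged H3K4me3 regions these shares were 64.5%, 4.46% and 10.1%. Among the 5066 that touched any H3K27me3 region away from H3K4me3, a closer reference, the shares were 74.7%, 2.33% and 7.5%. Beside the 5M-only H3K27me3 regions, 177 of 317 touching H3K4me3 regions (55.8%, 50.2 to 61.4%) were in all 4 libraries and 70 (22.1%, 17.6 to 27.1%) were listed at 5M only. Beside the regions in all 4 H3K27me3 lists the shares were 85.7% and 0.785%, close to those of the 60M-only regions. H3K4me3 listed at 60M only made up 2.87%, 2.21% and 3.03% of the touching H3K4me3 regions for the 60M-only, 5M-only and all-4-list groups. These intervals cover counting error over regions of the same libraries, and regions are not replicates.

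**Figure D3:**
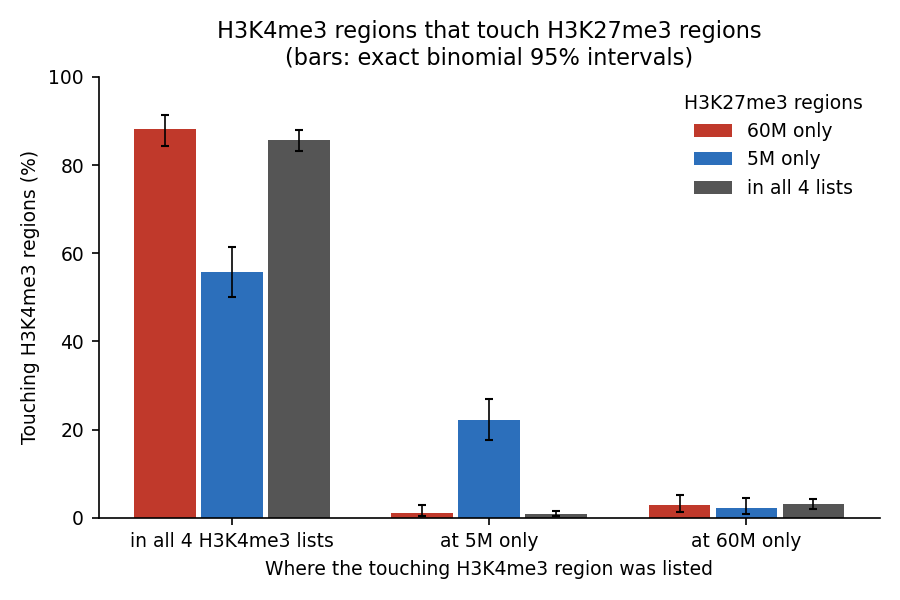
Bars give the share of H3K4me3 regions touching each group of H3K27me3 regions (vertical axis, %) that were listed in all 4 H3K4me3 libraries, at 5M only or at 60M only, with exact binomial 95% intervals. Beside the 60M-only regions 88.2% were in all 4 libraries and 1.15% at 5M only, against 55.8% and 22.1% beside the 5M-only regions.

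Shared H3K4me3 regions in the neighbourhood were slightly wider at 60M, as elsewhere. The 307 touching regions in all 4 lists had mean widths of 2.21 and 2.23 kb by the 5M lists, against 2.36 and 2.33 kb by those of 60M (2.22 ± 0.0115 and 2.35 ± 0.0230 kb, SD, n = 2). Over all 35229 shared H3K4me3 regions the means were 2.38 ± 0.0396 and 2.47 ± 0.00556 kb. Of the 307, 22 (7.17%) were wider in both 60M libraries than in both 5M libraries and 3 (0.977%) were narrower, where 7.43% and 2.49% of all shared regions were. Their strength, as a mean percentile among shared regions, was 42.5 and 43.1 at 5M and 42.7 and 45.1 at 60M, which overlapped between the ages.

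The regions were spread over all chromosomes. They fell into 703 windows of 1 Mb, and 499 of those held a single one. Within 50 kb of another 60M-only region lay 140 of the 992 (14.1%, 12 to 16.4%), a share close to the 14.7% (12.6 to 17.0%) of the 5M-only regions. Of the regions in all 4 lists, which are more numerous, 48.9% had another of their kind within 50 kb. A larger set has closer neighbours by construction.

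The window with most of them was on chromosome 4 (140000000 to 140999999), with 7. It held 20 and 18 H3K27me3 peaks in the 60M libraries and 9 in each 5M library, while its H3K4me3 peaks numbered 49 and 51 at 5M and 54 and 48 at 60M. The 7 regions were of middle strength, with mean percentiles of 26.4 to 59.3. A 3 kb region at 140302000 to 140304999 had maxima of 39.5 and 44.5 and no 5M H3K27me3 within 78 kb, and a 2 kb region at 140458000 to 140459999 had 55.2 and 40.4, a gap of 69 kb, and H3K4me3 touching it on both sides. The bin at 140380000 to 140380999 lay 2 kb from 5M H3K27me3. In this window 22 regions were away from H3K4me3 in all, of which 1 was listed at 5M only and 2 in all 4 lists.

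**Figure D4:**
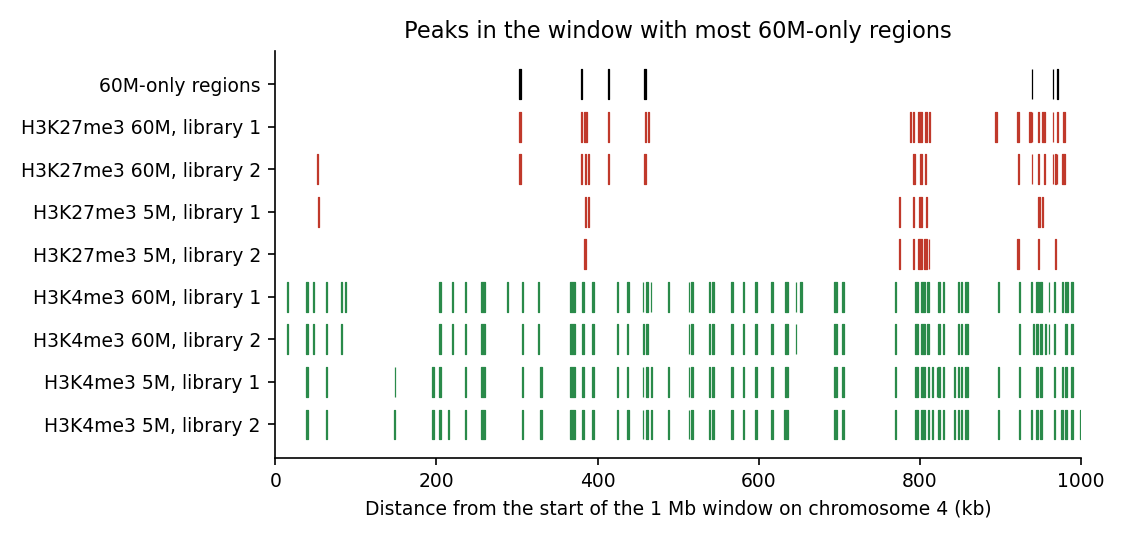
Peaks of the 8 libraries in the 1 Mb window of chromosome 4 with most 60M-only regions, by distance from the start of the window (horizontal axis, kb); each row is 1 library and the top row marks the 7 regions. Both 60M libraries have H3K27me3 at the marked places and neither 5M library does, while the H3K4me3 rows hold 48 to 54 peaks each.

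The next window, on chromosome 10 (79000000 to 79999999), held 5 regions. Its H3K27me3 peaks numbered 35 and 28 at 60M and 19 in each 5M library. The strongest was a bin at 79042000 to 79042999, with maxima of 82.6 and 69.6, which touched H3K4me3 in both 60M libraries, while the nearest H3K4me3 of the 5M libraries was 23 kb away. Its neighbour at 79116000 to 79116999 had 64.0 and 53.8, and the weakest of the window, at 79659000 to 79659999, had 34.3 and 29.8. Of the 10 windows with 4 regions, 4 are described. On chromosome 7 the regions lay close together, from 88115000 to 88238999, with maxima of 61.1 and 58.5 in the strongest and 43.0 and 46.2 in the weakest, and each was 2 to 12 kb from 5M H3K27me3. On chromosome 9, 3 of the 4 lay between 58701000 and 58711999, 13 to 21 kb from 5M H3K27me3, and 2 of these touched H3K4me3. The 4 on chromosome 5 had mean percentiles of 44.9 to 79.0, and the strongest, a bin at 106628000 to 106628999 with 57.6 and 64.4, touched H3K4me3 and was 2 kb from 5M H3K27me3. Those on chromosome 2 were 2 to 7 kb from 5M H3K27me3, and their strongest bin, 180615000 to 180615999, had 61.6 and 63.2.

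The autosomes held 0.288 to 0.486 regions per Mb and the X chromosome fewer. The X held 5 of the 992 regions (0.504%, 0.164 to 1.17%), or 0.0300 per Mb. It makes up 6.31% of the length of the chromosomes listed, and held 266 of all 19766 regions away from H3K4me3 (1.35%). It was also sparse in the like sets, with 8 of the 1847 regions in all 4 lists (0.433%) and 12 of the 1014 5M-only regions (1.18%). The 5 60M-only regions on X were all weak, with mean percentiles of 0.304 to 6.63 and maxima of 22.1 to 34.5. None of these was within 2 kb of 5M H3K27me3. The balance of 60M-only to 5M-only regions differed between autosomes: chromosome 9 had 57 against 37, chromosome 2 had 84 against 57, and chromosome 3 had 46 against 81, with 50 against 77 on chromosome 10. The share of the H3K27me3 lists moved the same way on chromosome 2, at 6.74% and 6.66% at 5M and 7.19% and 7.55% at 60M, and on chromosome 3, at 6.11% and 6.02% against 5.81% and 5.63%. These are the lists that chose the regions, so the counts were not tested. With each chromosome divided into 5 equal parts, 295 regions (29.7%) were in the part with the highest positions and 138 (13.9%) in the part with the lowest, which holds the centromere. For all regions away from H3K4me3 these shares were 29.0% and 15.3%.

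**Figure D5:**
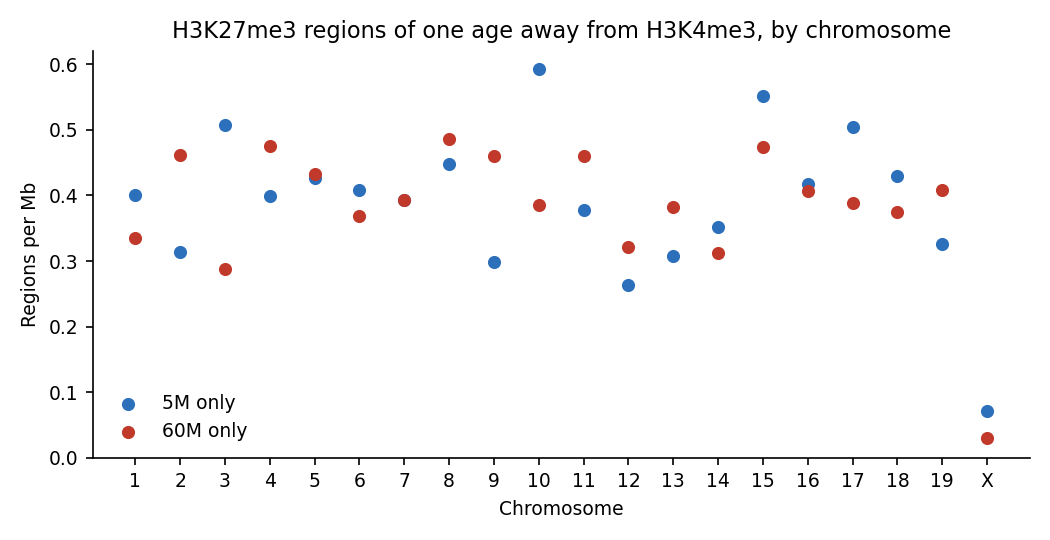
Number of H3K27me3 regions away from H3K4me3 per Mb of each chromosome (vertical axis) for those listed at 60M only and at 5M only. On the autosomes the 60M-only regions run from 0.288 per Mb on chromosome 3 to 0.486 on chromosome 8, and the X chromosome is lowest with 0.0300.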

How the data were processed

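The tools named are CASAVA 1.8.4 and Bowtie 1.1.2, with build mm10, per the submitters' processing notes. Neither the peak caller nor the control library is named (not given in the sources used here). Each deposited list holds the peaks of a single library, with a maximum immunoprecipitation signal of unstated scaling, 2 columns of −log10 p-values and a q-value per peak, per the file headers. Deposited −log10 p-values against the control run from 3.01 to a ceiling of 15.95, and the highest deposited q-value was 0.00097. Signal was ranked within a list and never compared across libraries.

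Groups came from the sample titles. Peaks were merged at a shared base, and gaps count the bases between borders (0 is touching). Tests were exact two-sided permutations over libraries. Shares have Clopper-Pearson 95% intervals, for counting error only. Calculations used scipy 1.17.1, pandas 2.3.3 and numpy 2.4.6 in Python 3.11.15; matplotlib 3.10.9 drew the figures. Chromosome lengths of mm9 and mm10 were taken from GenomeInfoDb 1.38.1; 2 peaks overhang mm9. The code was tested on simulated lists. Named regions are the 12 strongest by mean percentile, the 8 widest, and those in the 6 windows of 1 Mb with most regions. The regions and lists were chosen with earlier results of these data known. Classes of touching H3K4me3 and widths of shared H3K4me3 were added after the data were examined. Gene lists, promoter counts, marker genes and sequence composition were not analysed, because the positions and the available gene table differ in build.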

Additional observations from a re-analysis of the deposited data

How the results depend on the processing

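The number of 60M-only regions away from H3K4me3 stayed within 1.5 times of 992 in 9 of 14 settings. It was 404 (472 at 5M only) with −log10 p of at least 5 and 377 (476) with no H3K4me3 within 5 kb. The minimum of 5 applied to every list of both marks, so weak 5M and H3K4me3 peaks no longer excluded a region. Of the 992 regions, 196 overlapped one of the 404. With 1 library left out the number of 60M-only regions ran from 995 to 5580, and the 5M-only number from 1019 to 4504. It moved past 1.5 times without 5M H3K27me3 library 2 or either 60M one for the 60M-only regions, and without either 5M one or 60M library 1 for the 5M-only regions; fewer lists then decide, which raises the count by construction. When peaks within 1 kb were merged, 1100 regions met the rule and 874 of the 992 overlapped one of them. The median percentile of 40.3 became 37.4 with that merging, 46.2 at equal H3K27me3 list lengths and 68.0 with −log10 p of at least 5. The mean width per library of 1.37 kb became 1.44 kb at equal lengths and 1.88 kb with that minimum. Equal lengths and the minimum both drop weak peaks, while percentiles still refer to the full lists. A higher median percentile in these settings thus follows by construction. At equal lengths 0 of 834 regions were on X. The limit of 3 counts that a count of 0 allows is a share of 0.360%. That setting drops the weakest peaks, and the 5 regions on X were weak, with mean percentiles of 0.304 to 6.63. The 0 and its limit thus follow from their strength and say nothing further about the X share. With 1 H3K27me3 library left out, the X share was 0.502 to 1.19%, the width 1.14 to 1.46 kb, the percentile 25.5 to 44.3 and the share with another within 50 kb 18.5 to 45.9%. The age difference in H3K4me3 within 10 kb was 0.857 points, and within 50 kb it was −0.101 points (exact permutation p = 1). At equal list lengths the difference within 10 kb was 2.97 points (exact permutation p = 0.333). Within 2 kb it was 3.02 points, as for the touching peaks, which that window contains, so it is given without a test. The windows of 10 and 50 kb contain the touching peaks too, so their p-values are not independent of the rule. With 1 H3K4me3 library left out, the difference within 10 kb ran from −0.353 (without 60M library 1) to 2.07 points. With the replicate number as a block, the difference within 10 kb was 0.857 (exact permutation p = 1). The cause was not tested. The share of touching H3K4me3 listed at 5M only, an alternative set added after seeing the data, was 0.759 to 2.57% beside the 60M-only regions with 1 library left out, and 14.2 to 28.9% beside the 5M-only regions, where it was 17.0% at equal list lengths. Over all regions away from H3K4me3, the age difference at equal H3K4me3 list lengths was 0.402 points for touching peaks and 1.20 points within 10 kb, against −1.03 and −2.11 points with full lists (settings added after seeing the data). Alternatives that need gene annotation or sequence were not run.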

Other observations

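A small number of the 60M-only regions lay beside H3K4me3 that was itself near at one age only. In 10 of the 992, an H3K4me3 peak was less than 2 kb away in both 60M libraries and at least 10 kb away in both 5M libraries, and in 3 the reverse held. These are 1.01% and 0.302% of the regions, where 144 (0.729%) and 355 (1.8%) of all 19766 regions away from H3K4me3 showed the same, so the share with H3K4me3 near at 60M was little above that of all regions. Among the 1014 5M-only H3K27me3 regions the numbers were 10 with H3K4me3 near at 60M and 52 with H3K4me3 near at 5M. For the 1847 regions in all 4 H3K27me3 lists they were 30 (1.62%) and 5 (0.271%). The share near at 60M was thus higher in that set than in the 60M-only regions. The following examples were chosen after their values were seen. On chromosome 15 (57604000 to 57606999) H3K27me3 had 60M maxima of 63.4 and 62.6, and H3K4me3 was 1 kb away in both 60M libraries and 17 kb away in both 5M libraries. On chromosome 12 (118290000 to 118291999) H3K4me3 touched the region in both 60M libraries and was 97 kb away at 5M, with H3K27me3 maxima of 44.8 and 50.3. On chromosome 4 (54087000 to 54087999) it touched at 60M and was 40 kb away at 5M, and 141 kb before it a bin at 53945000 to 53945999 showed the reverse, with H3K4me3 touching in both 5M libraries and 36 kb away at 60M.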
